A study of Rattus norvegicus with 6 samples.

Results

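Resident and scavenging macrophages of tendon were followed through 10 genes that mark the lineage or its uptake of debris: the lineage genes Csf1r and Adgre1, the lysosomal gene Cd68, the resident-cell genes Mrc1, Cd163, Lyve1 and F13a1, and the scavenging and lipid genes Msr1, Trem2 and Gpnmb. The genes were chosen by name, with earlier results of these data known. Each was measured by 1 probe set whose annotation names that gene alone, so that 10 of the 22093 genes tested are described here. Tendon RNA came from Sprague-Dawley rats, as 3 samples after tendon injury and 3 samples after control surgery, with 1 array per sample and tendons collected 1 week after the operation. Rats were allotted to the operations at random, per the labels. The labels call the replicates biological, while the sources used here do not give the rats' sex or age, any pooling of animals, the tendon used or the way it was injured. The control rats also underwent surgery, so both groups share an operation.

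Macrophages live in healthy connective tissue as long-lived resident cells, which clear debris, take up glycoproteins and sit near vessels. After wounding, monocytes from the blood enter the tissue and become macrophages that first carry inflammatory programmes and later clear dead cells and lipid. Csf1r signalling keeps both kinds of cell alive, scavenger and lectin receptors such as Mrc1, Cd163 and Msr1 bring cargo in, and Trem2 and Gpnmb are known from cells loaded with lipid and membrane debris.

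The arrays differed in ways that touch every value below. The median of the unnamed probe sets, which was used as a mark of background, was 5.59, 6.61 and 6.50 (log2 signal) on injured replicates 1, 2 and 3, against 5.49 to 5.79 on the control arrays. Olfactory and vomeronasal receptor genes, which are not known from tendon, had a median difference from the control mean of -0.03, 2.11 and 2.03 on injured replicates 1, 2 and 3. Skeletal muscle genes were bright on the control arrays and on injured replicate 1. Myh4, a fast muscle myosin, read 19.93, 15.78 and 13.32 on injured replicates 1, 2 and 3, and was at the upper limit of 19.93 on all control arrays. Acta1, muscle actin, was at its array's upper limit on 5 of the 6 arrays and read 14.38 on injured replicate 2. Of the tenocyte markers, Kera read 8.90 to 9.79 on the injured and 15.46 to 19.17 on the control arrays, while Scx was close to background on all 6 arrays. Injured replicate 1 correlated across genes with the control arrays at r = 0.951 to 0.966, and with injured replicates 2 and 3 at r = 0.728 and 0.790.

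Of the 10 genes, 4 had every injured array below every control array: F13a1, Mrc1, Csf1r and Cd163. Among all genes, 8.0% had their groups apart in this direction. None of the 10 genes had every injured array above every control array, which was seen for 7.09% of all genes. The same 4 genes had an unadjusted p under 0.05 with a lower signal in injured tendon, against 7.25% of all genes, and no member was higher at that level, against 4.39% of all genes. That count of 4 fell to 1 member without control replicate 2 or control replicate 3 (673 and 1079 of all genes lower at that level). It fell to 2 members without injured replicate 2 or injured replicate 3 (666 and 637 of all genes lower). Without control replicate 1 it was 4, with 1145 of all genes lower, and without injured replicate 1 it was 5, with 5270 of all genes lower. No gene of the whole table passed an adjusted p of 0.05 in limma (0 of 22093 genes, 0.0%), while 2572 genes had an unadjusted p under 0.05. The median difference of the 10 genes, injured minus control, was -0.52 on the log2 scale, beside 0.15 over all genes tested. In bulk tissue, fewer cells of a type and less RNA per cell cannot be told apart.

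**Figure D1:**
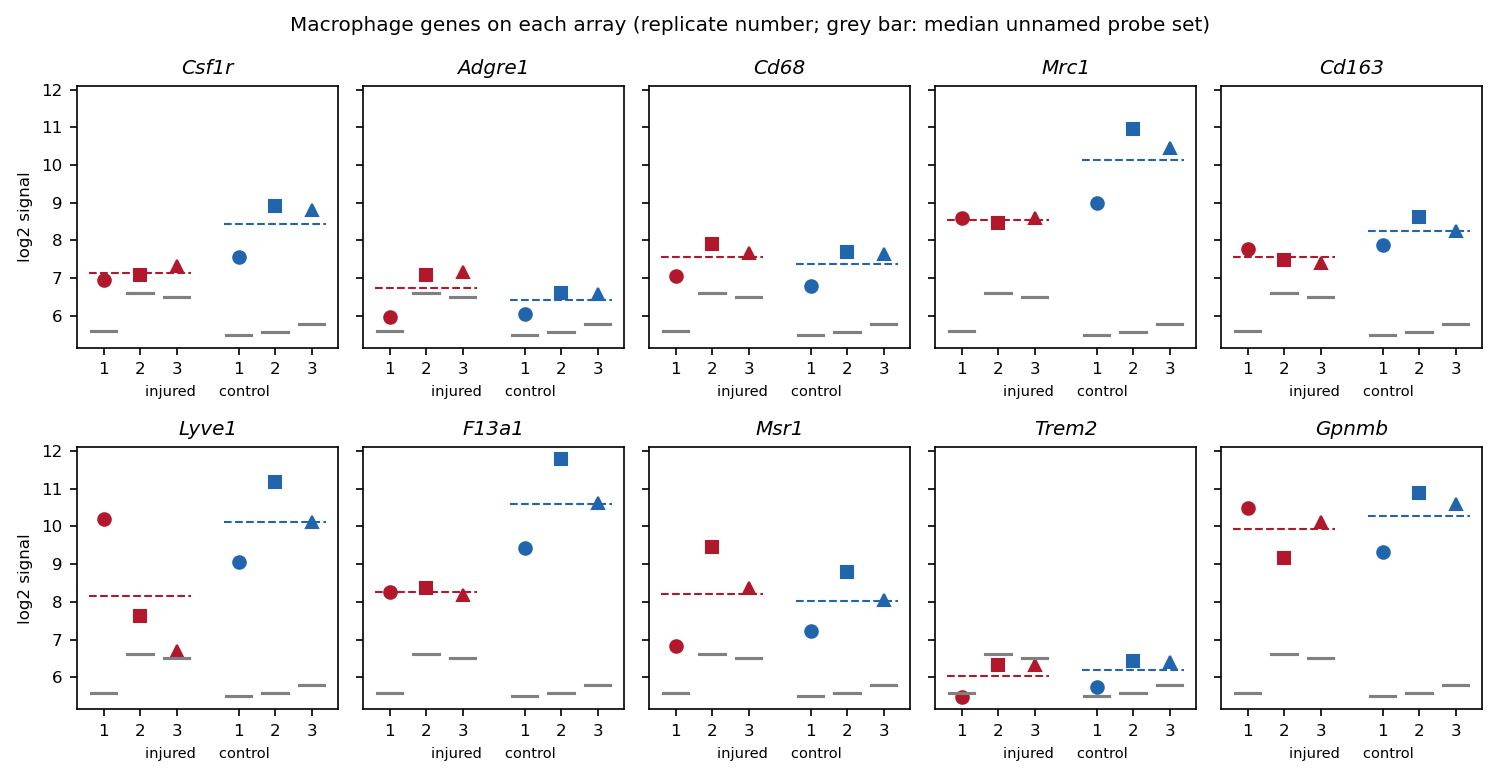
Log2 signal of the 10 macrophage genes (vertical axis) on the 3 injured arrays (red, left) and the 3 control arrays (blue, right), with replicate numbers on the horizontal axis, dashed lines at the group means and grey bars at the median unnamed probe set of each array. F13a1, Mrc1, Csf1r and Cd163 have all injured points below all control points, Lyve1 has 1 injured point at the control level, and Trem2 lies near the grey bars.

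F13a1 encodes the catalytic A subunit of coagulation factor XIII, which cross-links fibrin and is made by resident macrophages. Its log2 signal was 8.25, 8.36 and 8.17 on injured replicates 1, 2 and 3, against 9.43, 11.78 and 10.61 on control replicates 1, 2 and 3. The injured arrays lay within 0.19 of one another, and the highest of them was 1.07 below the lowest control array. F13a1 averaged 8.26 ± 0.10 in injured tendon and 10.61 ± 1.18 in control tendon (SD, n = 3 each), a difference of -2.35 (SE 0.59), or 5.09-fold lower, with a 95% interval of -3.80 to -0.89. The limma adjusted p over all genes was 0.322. Only 2.04% of all genes had a lower difference.

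Mrc1 encodes the mannose receptor, a lectin that takes up mannose-bearing glycoproteins and fragments of collagen. Its log2 signal was 8.60, 8.45 and 8.59 on the injured arrays, against 9.0, 10.96 and 10.46 on the control arrays. The 3 injured arrays were nearly level, while control replicate 1 stood well below the other 2 control arrays and 0.40 above the highest injured array. The means were 8.55 ± 0.08 in injured and 10.14 ± 1.02 in control tendon (SD, n = 3 each), a difference of -1.59 (SE 0.51), or 3.02-fold lower, with an adjusted p of 0.322 in limma.

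Csf1r encodes the receptor of the growth factors Csf1 and Il34, on which macrophages depend for survival. It read 6.95, 7.09 and 7.33 in injured tendon, against 7.55, 8.92 and 8.80 in control tendon. Here too the groups were apart, by 0.22, because control replicate 1 came close to the injured arrays. The difference was -1.30 (SE 0.40), or 2.46-fold lower, with a 95% interval of -2.29 to -0.31 and an adjusted p of 0.322 in limma. Of the ligands, Csf1 read 6.98, 7.14 and 6.98 in injured tendon against 7.27, 8.40 and 8.24 in control tendon, so these groups were apart as well. Il34 was between 5.75 and 5.80 on the injured arrays and between 5.77 and 5.98 on the control arrays, near background.

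Cd163 encodes the receptor that removes complexes of haemoglobin and haptoglobin. Its log2 signal was 7.76, 7.48 and 7.41 on the injured arrays, against 7.88, 8.61 and 8.25 on the control arrays. The groups were apart by 0.12, the narrowest gap of the 4 genes. The difference was -0.70 (SE 0.24), or 1.62-fold lower, with an adjusted p of 0.322 in limma. Hmox1, which encodes the enzyme that breaks down the haem so taken up, went the other way and read 7.36, 8.26 and 7.21 in injured tendon against 5.80, 6.17 and 6.10 in control tendon. Its difference was 1.59 (SE 0.32, adjusted p = 0.322 in limma), and it was chosen after its values were seen.

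On injured replicate 1, where the median of all genes was -0.02 from the control mean and the background was within the control range, F13a1 was at -2.36, Mrc1 at -1.54 and Csf1r at -1.47 against their control means. The same genes were at -2.25, -1.69 and -1.33 on injured replicate 2, and at -2.44, -1.55 and -1.09 on injured replicate 3. In deposited signal, these 3 genes were about as far below the control mean on the array with control-like background as on the arrays with higher background. Set against the median unnamed probe set of its own array, F13a1 stood at 2.66, 1.75 and 1.67 on the injured arrays, against 3.94, 6.20 and 4.82 on the control arrays. Mrc1 stood at 3.01, 1.84 and 2.09 in injured and 3.51, 5.38 and 4.67 in control tendon, and Csf1r at 1.36, 0.48 and 0.83 in injured and 2.06, 3.34 and 3.01 in control tendon. On that scale the 3 genes were again below every control array, and less far below on injured replicate 1 than on replicates 2 and 3. In deposited signal, Cd163 was at -0.49 from its control mean on injured replicate 1, -0.77 on replicate 2 and -0.84 on replicate 3. Against the median unnamed probe set, Cd163 stood at 2.17, 0.87 and 0.91 on the injured arrays and at 2.39, 3.03 and 2.46 on the control arrays. Ranked among all genes of its own array, F13a1 stood at percentiles 78.9, 88.5 and 85.6 in injured tendon and 87.6, 96.3 and 94.8 in control tendon, and Mrc1 at 82.0, 89.4 and 89.9 in injured and 84.9, 94.6 and 94.3 in control tendon, so by rank both genes overlapped between the groups. Csf1r stood at 63.2, 61.1 and 69.3 in injured and at 71.3, 84.3 and 85.8 in control tendon, and its ranks did not overlap. Cd163 stood at 73.70, 73.34 and 71.45 in injured and at 74.87, 81.94 and 80.84 in control tendon. Its ranks did not overlap, but control replicate 1 came close to the injured arrays.

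**Figure D2:**
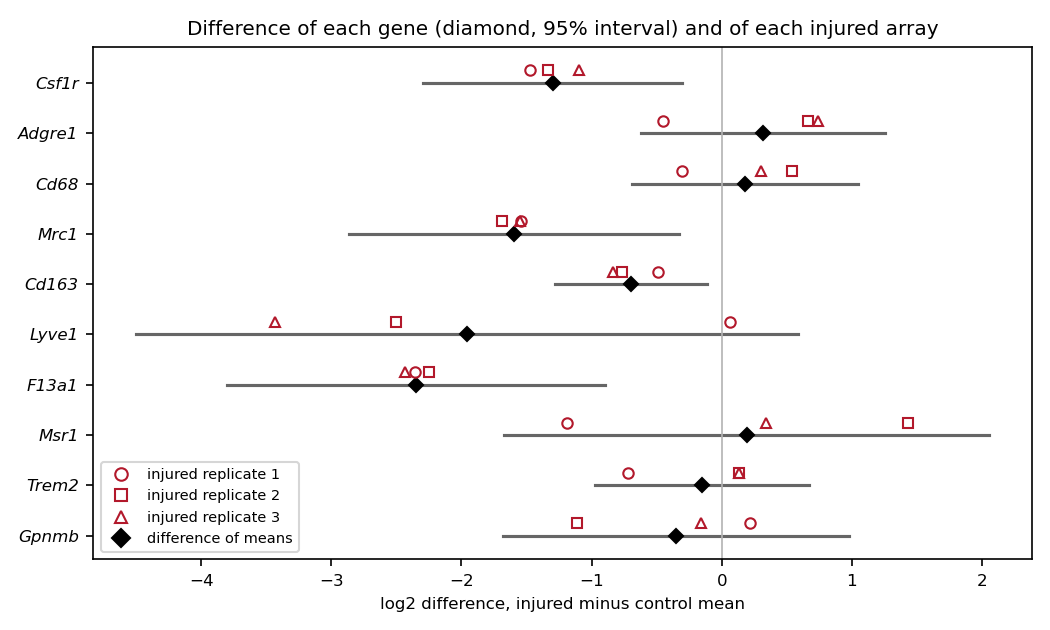
Log2 difference from the control mean (horizontal axis) for each of the 10 genes (vertical axis), with diamonds for the difference of the group means, lines for its 95% interval and open red symbols for each injured array. The 3 injured arrays lie close together for F13a1, Mrc1, Csf1r and Cd163, and far apart for Lyve1 (0.07, -2.50 and -3.43) and Msr1 (-1.19, 1.43 and 0.34).

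The promoters of these 4 genes are shown because the genes lay below control together. They come from RefSeq on assembly GRCr8, and each window runs from 250 bases before to 50 bases after the start site that the RefSeq table uses. Windows were found for 9 of the 10 genes. Capitals mark matches, on either strand, to GAGGAA, the core of the site bound by PU.1, a transcription factor that macrophages need for their development.
F13a1, chr17:28020947-28021246, plus strand: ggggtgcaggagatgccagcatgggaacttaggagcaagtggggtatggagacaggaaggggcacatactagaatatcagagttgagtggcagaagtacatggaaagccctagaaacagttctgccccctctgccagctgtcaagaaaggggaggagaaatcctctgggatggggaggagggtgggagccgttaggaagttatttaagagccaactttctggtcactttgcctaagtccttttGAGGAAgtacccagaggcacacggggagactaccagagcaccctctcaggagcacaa
Mrc1, chr17:82157475-82157774, plus strand: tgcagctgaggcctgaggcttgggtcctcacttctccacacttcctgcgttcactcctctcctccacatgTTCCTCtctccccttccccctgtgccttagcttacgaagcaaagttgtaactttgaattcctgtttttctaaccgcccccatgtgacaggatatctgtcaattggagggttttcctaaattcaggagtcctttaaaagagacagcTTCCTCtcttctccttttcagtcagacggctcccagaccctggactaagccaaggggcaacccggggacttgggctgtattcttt
Csf1r, chr18:56834129-56834428, plus strand: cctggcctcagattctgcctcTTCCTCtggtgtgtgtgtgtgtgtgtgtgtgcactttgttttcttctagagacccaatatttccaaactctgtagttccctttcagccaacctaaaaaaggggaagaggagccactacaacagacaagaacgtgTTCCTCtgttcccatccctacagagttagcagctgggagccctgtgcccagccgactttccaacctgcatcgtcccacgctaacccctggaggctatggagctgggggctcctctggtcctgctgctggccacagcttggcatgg
Cd163, chr4:158770524-158770823, plus strand: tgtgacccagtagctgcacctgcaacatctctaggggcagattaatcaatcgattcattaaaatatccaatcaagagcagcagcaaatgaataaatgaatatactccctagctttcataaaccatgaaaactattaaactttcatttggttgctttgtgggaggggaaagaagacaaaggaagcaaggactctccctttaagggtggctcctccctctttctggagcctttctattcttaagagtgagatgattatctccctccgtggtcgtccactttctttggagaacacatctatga
F13a1 has 1 match, with its first base 7 bases before the start, Mrc1 and Csf1r have 2 matches each, all on the other strand, and the Cd163 window has none. Of the 9 windows, 7 hold GAGGAA, the exceptions being Cd163 and Lyve1, beside 27.5% of 27457 promoters in the table. CACGTG, the E-box of the Mitf and Tfe factors, was found in 0 of 9 windows and in 6.65% of all promoters. TGCTGA, part of the site of Maf factors, was found in 2 of 9 windows, those of Adgre1 and Cd68, and in 18.6% of all promoters. Matches of 6 letters describe the sequence and do not show binding.

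Lyve1 encodes a receptor for hyaluronan that is found on lymphatic endothelium and on resident macrophages beside vessels. Its log2 signal was 10.19, 7.62 and 6.69 on injured replicates 1, 2 and 3, against 9.06, 11.18 and 10.13 on the control arrays. Injured replicate 1 lay within the control range, injured replicates 2 and 3 lay below it, and the groups overlapped. The difference was -1.96 (SE 1.03), with a 95% interval of -4.50 to 0.59 and an adjusted p of 0.322 in limma. Without injured replicate 1 the difference was -2.97 with an adjusted p of 0.0159, in a fit that also called 21.6% of all genes lower and 39.1% higher. With the median unnamed probe set of each array as a covariate, the difference was -0.32 (adjusted p = 0.98 in limma). Injured replicate 3 was only 0.19 above the median unnamed probe set of its array, so the size of its drop is bounded by background.

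Some endothelial genes were low on the same arrays. Among 8 markers of lymphatic endothelium, 5 had differences below 0 and 3 were apart below the control arrays (Ccl21, Nrp2 and Foxc2). Among all 22093 genes, 8480 had differences below 0 and 8.0% were apart in this direction. Foxc2 read 4.11 to 4.25 in injured and 4.29 to 4.41 in control tendon, below the median unnamed probe set on every array. The median difference of the 8 lymphatic markers from the control mean was -0.21 on injured replicate 1, -0.03 on replicate 2 and -0.11 on replicate 3, so the list as a whole was not lower on replicates 2 and 3 than on replicate 1. Their summed signal, in which the bright Mmrn1 weighs most, was 10.23 to 12.61 (log2) on the injured arrays and 12.27 to 13.60 on the control arrays. Mmrn1, a marker of lymphatic vessels, read 12.35, 7.91 and 6.67 in injured tendon against 11.73, 12.56 and 13.35 in control tendon, which is the array order of Lyve1 among the injured samples. Prox1, which defines lymphatic endothelium, read 6.91 to 7.28 in injured and 6.81 to 7.06 in control tendon, and did not share that pattern, nor did Pdpn, a surface glycoprotein of lymphatic endothelium, at 8.14, 10.80 and 9.04 in injured and 8.65, 9.58 and 9.24 in control tendon. All 8 markers of blood vessel endothelium had differences below 0, with 1 of 8 apart, a summed signal of 10.80 to 14.81 in injured and 13.43 to 14.75 in control tendon, and array medians of 0.53, -3.01 and -2.78 on the injured arrays against the control mean. Pecam1, an adhesion protein of endothelium, read 13.74, 7.71 and 7.52 in injured tendon against 11.92, 12.83 and 11.17 in control tendon, and Emcn, an endothelial sialomucin, 11.93, 9.47 and 9.53 in injured against 12.89, 13.30 and 12.32 in control tendon. The part of endothelium in the Lyve1 result was not tested.

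**Figure D3:**
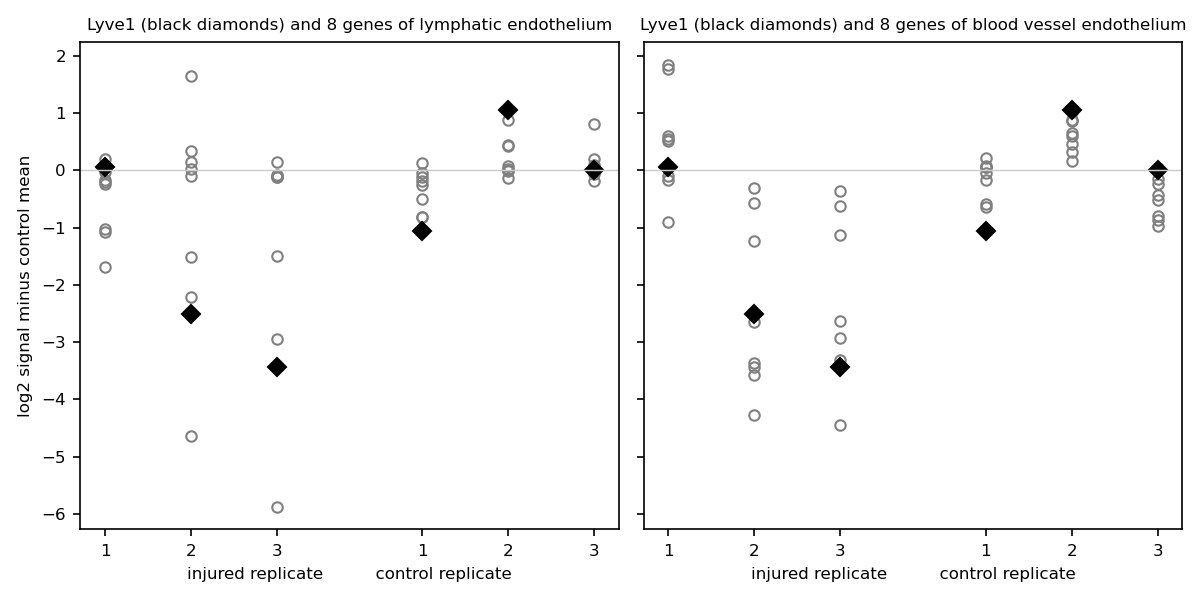
Log2 signal minus the control mean (vertical axis) on the injured and control arrays (horizontal axis) for Lyve1 (black diamonds) and for single markers (grey circles) of lymphatic endothelium (left) and blood vessel endothelium (right). Lyve1 is at 0.07 on injured replicate 1 and at -2.50 and -3.43 on replicates 2 and 3, and Mmrn1 of the lymphatic list and most blood vessel markers are low on the same 2 arrays.

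In the deposited values the scavenging and lipid genes did not share the pattern of F13a1 and Mrc1, and their groups overlapped. Msr1, the class A scavenger receptor for modified lipoproteins, read 6.83, 9.45 and 8.36 on the injured arrays and 7.23, 8.78 and 8.05 on the control arrays. Injured replicate 1 held the lowest value of the 6 and injured replicate 2 the highest, so the difference of 0.19 (SE 0.75, 95% interval -1.67 to 2.06) says little about the direction. Its sign turned to -0.33 after centring on the array medians.

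Gpnmb, a glycoprotein of lysosomes and phagosomes, read 10.49, 9.16 and 10.11 in injured tendon against 9.33, 10.89 and 10.59 in control tendon. The groups overlapped over most of their ranges. The difference was -0.35 (SE 0.54), and its 95% interval of -1.68 to 0.98 leaves room for a change in either direction. Trem2, a receptor for lipids that signals through Tyrobp, read 5.47, 6.32 and 6.32 in injured tendon against 5.73, 6.42 and 6.41 in control tendon. The injured values stood at -0.12, -0.29 and -0.18 from the median unnamed probe set of their arrays, and the control values at 0.24, 0.84 and 0.62. Its difference of -0.15 (SE 0.33) was measured at the level of background. After quantile normalization and centring, the difference of Trem2 was -0.66 and -0.68, and its injured arrays were then all below its control arrays. Its percentiles among all genes, 28.2, 33.0 and 35.6 in injured and 38.7, 52.6 and 50.2 in control tendon, did not overlap either. Tyrobp, the adaptor protein, read 5.58, 7.09 and 6.91 in injured and 6.18, 6.48 and 6.53 in control tendon.

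The general markers Cd68 and Adgre1 did not lie below control on every injured array. Cd68, a glycosylated protein of the lysosomal membrane, read 7.06, 7.91 and 7.67 in injured tendon against 6.78, 7.68 and 7.64 in control tendon, a difference of 0.18 (SE 0.35, 95% interval -0.69 to 1.05). Adgre1, the adhesion receptor used as a general macrophage marker in mouse, read 5.96, 7.07 and 7.15 in injured tendon against 6.05, 6.60 and 6.58 in control tendon. Injured replicate 1 was below all control arrays and replicates 2 and 3 were above them, a pattern seen in 11.2% of all genes. Adgre1 was at most 1.02 above the median unnamed probe set on any array, and its difference of 0.32 (SE 0.38) became -0.21 after centring and -0.13 after quantile normalization. Cd68 likewise became -0.35 and -0.04. Both scalings moved the median difference of all genes, to -0.38 with centring and -0.28 with quantile normalization.

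Across the 6 arrays the members fell into sets by their profiles, described here by Pearson's r, with arrays of 2 groups pooled. Mrc1 went with Csf1r (r = 0.984), F13a1 (0.979) and Cd163 (0.956). Msr1 went with Cd68 (0.898), Adgre1 (0.860) and Trem2 (0.848), and hardly with Mrc1 (0.168). Lyve1 was nearest to Cd163 (0.887) and ran against Adgre1 (-0.640). Arrays share background and tissue make-up, so these values do not show that genes are linked.

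Much of the spread lay within the control group. All 10 genes were lowest on control replicate 1 among the control arrays, as were 47.3% of all genes, and all 10 were highest on control replicate 2, with control replicate 3 between, as were 15.2% of all genes. The spread between control arrays was 2.35 for F13a1, 2.12 for Lyve1 and 1.96 for Mrc1, against 0.19, 3.50 and 0.15 between injured arrays. Tenocyte markers were low on the same control array, with a median of -1.72 against the control mean, and skeletal muscle markers were at 0.44. Without control replicate 1 the differences were -2.94 for F13a1, -2.16 for Mrc1 and -1.74 for Csf1r.

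Injured replicate 1 decided how many genes passed the test. Without it, 13418 of 22093 genes passed an adjusted p of 0.05, 21.6% of all genes lower and 39.1% higher. In that fit Lyve1 (adjusted p = 0.0159), Cd163 (0.0329) and F13a1 (0.0334) were lower and Adgre1 (0.0342) was higher, while Mrc1 (0.0634) and Csf1r (0.0661) did not pass. The remaining injured arrays are the 2 with the raised background, so those calls compare arrays that differ in background as well as in injury, and the 2 cannot be told apart. Against shares of 21.6% and 39.1% of all genes, 3 lower and 1 higher of 10 members are not far from the background. Weighting the arrays by their quality, which gave injured replicate 1 the least weight, likewise put 27.5% of all genes lower and 45.4% higher, with 5 and 1 of the 10 members.

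Other genes of macrophages were taken from lists that were chosen with earlier results of these data known. Among 15 other genes of resident macrophages, 5 were lower at an unadjusted p under 0.05 and 0 higher, against 7.25% and 4.39% of all genes. In this list 5 were apart below control, against 8.0% of all genes, and the median difference was -0.27. Differences were above 0 for Siglec1, Ms4a7, Il10ra, Marco and Cd209f. On injured replicate 2, and likewise on replicate 3, 8 of the 15 genes were not above the median unnamed probe set. Maf, a transcription factor of resident macrophages, differed by -1.34 (SE 0.35), and Selenop, a secreted selenoprotein, by -3.31 (SE 0.89). Selenop was at -1.25 from the control mean on injured replicate 1 and at -4.47 and -4.23 on replicates 2 and 3, where it read 5.90 and 6.14, below the median unnamed probe set, so the size of that drop is bounded by background. Folr2, a folate receptor of resident macrophages, chosen after its values were seen, read 6.97, 7.06 and 7.27 in injured tendon against 8.01, 9.88 and 9.18 in control tendon. Among 17 general macrophage and myeloid genes, 1 was lower and 0 were higher at that level, and the median difference was -0.04. Cybb, an oxidase subunit of phagocytes, differed by -1.67 (SE 0.67), and C1qa, a complement subunit made by macrophages, by -0.49 (SE 0.20).

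Among 21 lysosome and lipid handling genes, 5 were lower and 2 higher at an unadjusted p under 0.05, against 7.25% and 4.39% of all genes, with a median of -1.12. Lamp2 and Ctsb, both lysosomal, differed by -2.38 (SE 1.30) and -1.13 (SE 0.66). Plin2, which coats lipid droplets and was chosen after its values were seen, read 10.01, 12.21 and 11.43 in injured tendon against 9.11, 9.76 and 8.86 in control tendon, and these groups were apart. Among 13 other scavenger receptors, 2 were lower and 0 higher, with a median of -0.15. Cd36, a fatty acid receptor that muscle and endothelium also express, read 19.46, 12.10 and 11.75 in injured tendon against 18.71, 18.72 and 16.45 in control tendon. Scarb2 differed by -2.56 (SE 1.10). Marco and Stab1 stand in both the resident list and the scavenger list.

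Genes of recruited cells ran differently between injured arrays. Of 15 monocyte and recruited macrophage genes, 1 was lower and 1 higher at an unadjusted p under 0.05, against 7.25% and 4.39% of all genes. In that list 12 had differences above 0 and 3 below, beside 13613 above and 8480 below among all 22093 genes, and the median was 0.51. The list's median stood at -0.17 on injured replicate 1, 1.07 on replicate 2 and 0.44 on replicate 3. Fn1 and Thbs1, which many cells of a wound also make, differed by -3.01 (SE 1.13) and -0.34 (SE 1.09). Ccr2, the monocyte chemokine receptor, chosen after its values were seen, read 6.57, 8.65 and 8.56 in injured tendon against 7.22, 9.09 and 8.85 in control tendon. These 3 genes are the ones below 0. Among the others, also chosen after their values were seen, the chemokine Ccl3 read 6.84, 17.45 and 14.69 in injured tendon against 5.68, 5.99 and 6.12 in control tendon, a difference of 7.06 (SE 2.67), and its groups were apart. The cytokine Il1b read 6.05, 14.57 and 11.88 in injured tendon against 5.97, 6.40 and 6.28 in control tendon, a difference of 4.62 (SE 2.12). Nos2, which makes nitric oxide, and the monocyte chemokine Ccl2 differed by 2.85 (SE 1.35) and 1.82 (SE 1.36). All 4 were brighter on injured replicates 2 and 3 than on injured replicate 1. Among 16 ligands and partners of the members, 2 were lower and 1 higher, with a median of 0.39. Apoe, a lipid carrier bound by Trem2, differed by -1.27 (SE 0.31), and Has2, which makes the hyaluronan that Lyve1 binds, by 0.40 (SE 0.65). The array medians of the olfactory and vomeronasal receptors on injured replicates 2 and 3 were above those of each of these lists.

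Markers of other cells also lay below control beside the 4 lower genes. Among all 22093 genes, 8480 had differences below 0 and 13613 above, and 8.0% were apart below control. Of 11 tenocyte markers, 11 had differences below 0 and 9 were apart below control, with a summed signal of 11.25 to 14.12 in injured and 16.98 to 20.21 in control tendon. Thbs4, a matrix protein of tendon, read 13.45, 8.80 and 12.96 in injured tendon against 15.11, 16.02 and 17.79 in control tendon. Of 9 skeletal muscle markers, 9 had differences below 0 and 0 were apart, with array medians of 0.00, -7.00 and -6.88 on the injured arrays and summed signals of 16.53 to 22.28 in injured and 21.98 to 22.50 in control tendon. Ctsk, which tenocytes, fibroblasts and osteoclasts express, differed by -2.16 (SE 0.49), while Tnfrsf11a, the receptor for the osteoclast factor RANKL, differed by 0.12 (SE 0.20) and osteoclast markers as a list had a median of 0.38 over 8 genes. The median of 10 neutrophil markers was 1.08, with 0 lower and 2 higher at an unadjusted p under 0.05, against 7.25% and 4.39% of all genes. The median was 0.66 over 7 dendritic cell markers and 0.06 over 5 mast cell markers. Against the control mean, neutrophil array medians were 0.003, 2.375 and 1.125 on injured replicates 1, 2 and 3, and dendritic cell medians 0.07, 0.91 and 0.82. Olfactory and vomeronasal receptors had a median difference of 1.36, above the medians of the neutrophil, dendritic cell, mast cell and osteoclast lists. On injured replicate 2 the neutrophil median was above that of the receptors, which was 2.11. Of the brightest genes of these lists, Lcn2 and Cxcr2 of neutrophils differed by 0.86 (SE 0.54) and 1.30 (SE 0.80), Clec9a and Ccr7 of dendritic cells by 0.66 (SE 0.18) and 0.76 (SE 0.33), and Cpa3 and Kit of mast cells by -1.40 (SE 0.45) and 0.11 (SE 0.21). The 11 reference genes had a median of -1.38. Among them B2m, a subunit of class I histocompatibility proteins, differed by -2.02 (SE 0.74), while Gapdh was at the upper limit of all 6 arrays and could show no difference. The part of these cells in the macrophage result was not tested.

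**Figure D4:**
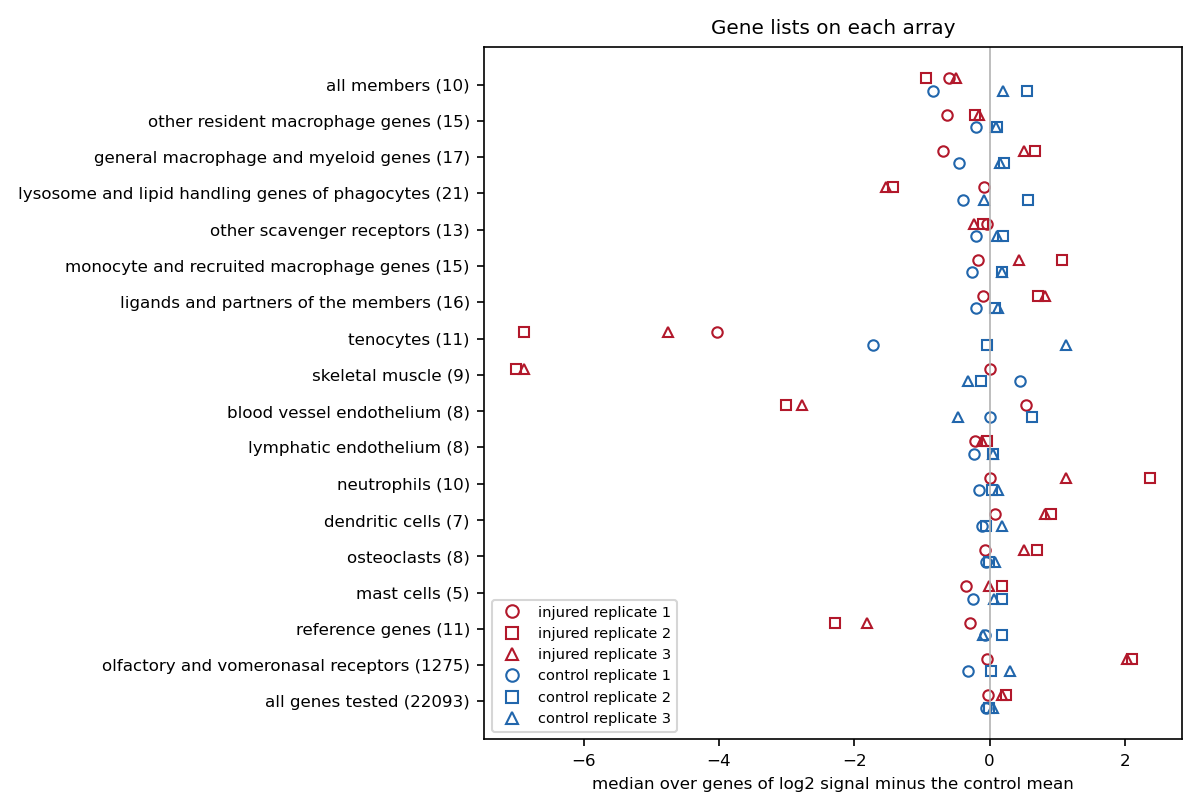
Median over the genes of each list (number of genes in brackets) of the log2 signal minus the control mean (horizontal axis), for the injured arrays (red) and the control arrays (blue). The median of the 10 members lies between -0.94 and -0.50 on the injured arrays and at -0.83 on control replicate 1, and the lists of tenocytes, muscle, blood vessels and neutrophils spread further.

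The genes most like 3 of the members were found over the 6 arrays among 14607 other genes. For Mrc1 they were Apobec1 (r = 0.995), Atrnl1 (0.995) and Sele (0.994). For Csf1r they were Ifi30 (0.997), Apobec1 (0.996) and Olfml2a (0.991), so Apobec1 was near both. For Gpnmb they were Rpl23a-ps20 (0.992), Tgds (0.991) and Ankrd13a (0.986). Apobec1 read 6.92, 6.93 and 7.06 in injured tendon against 7.21, 8.22 and 8.05 in control tendon. These values describe 6 arrays only.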

How the data were processed

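The authors deposited 1 table of log2 signals for 68842 probe sets on 6 arrays, for which the submitters' processing notes name Affymetrix Expression Console. The sources used here do not give its version, background correction or normalization, and the values themselves showed the log2 unit. The titles name a rat array and the protocol a mouse array of the same maker. Probe sets carry rat gene symbols. Of the probe sets, 23446 name 1 gene, 505 several and 44891 none. Entrez identifiers of 22077 matched the GRCr8 gene table. The probe set of highest mean represents a gene. Values were used unchanged and fitted with limma 3.58.1 (R 4.3.3, lmFit and eBayes, two-sided, Benjamini-Hochberg over 22093 genes). Errors are SE of a difference or SD over 3 arrays. The arrays' number limits the precision. The labels do not say that replicates came from separate rats, and p-values then measure only the spread between these samples. Members and lists (15 lists, 174 of 178 genes measured) were chosen with earlier results of these data known. Named genes are the members, the 2 brightest genes of each list, and the 3 genes most like Mrc1, Csf1r and Gpnmb. All other genes named (ligands and partners beside a member, Prox1 and Scx among them) were named after their values were seen. Olr1, the oxidised LDL receptor in rat, was left out of the olfactory receptors. The fit was tested on simulated data. Alternatives were quantile normalization, centring, a filter on dim genes, mean or all probe sets, trend and robust moderation, array weights, a replicate block, a background covariate and each array left out.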

Additional observations from a re-analysis of the deposited data

How the results depend on the processing

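Over 15 alternatives for each of the 10 genes (150 values), 125 kept their direction and side of the threshold, 10 passed the threshold with the same direction and 15 turned their sign. The dim-gene filter, mean or all probe sets, trend and robust moderation and the replicate block could change only a member's p-value, not its difference. Under those alternatives the direction was fixed in advance, so they add nothing to the tally of kept directions or to the signs and ranges that follow. Only with array quality weights and without injured replicate 1 did any gene pass the threshold, so in the other alternatives every member kept its side. F13a1 ranged from -2.94 to -1.76, Mrc1 from -2.16 to -1.18, Csf1r from -1.83 to -1.05, Cd163 from -1.22 to -0.52 and Lyve1 from -3.66 to -0.32, and these 5 genes stayed below 0 at every alternative run. The number of members apart below control, 4 in the main fit, was 5 after quantile normalization and 5 after centring. Without each replicate in turn, it was 4 to 6, the number apart above control 0 to 1, and the number of genes past the threshold 0 to 13418. With an array left out, groups that were apart stay apart, so the counts of members apart could only stay or rise. In those fits the differences were 0.11 to 0.70 for Adgre1, -0.11 to 0.42 for Cd68, -0.43 to 0.89 for Msr1, -0.38 to 0.13 for Trem2, -0.82 to 0.03 for Gpnmb, -0.88 to -0.52 for Cd163, -2.97 to -1.22 for Lyve1 and -2.94 to -1.76 for F13a1. After quantile normalization Adgre1 was at -0.13 and Cd68 at -0.042. After centring, Adgre1 was at -0.21, Cd68 at -0.35 and Msr1 at -0.33. With each array's background (its median unnamed probe set) as a covariate, Adgre1 was at -0.41, Cd68 at -0.36, Msr1 at -1.15 and Gpnmb at 0.060. Lyve1 was then at -0.32, against -1.96 in the main fit, while F13a1 was at -2.46, Mrc1 at -1.69, Csf1r at -1.58 and Cd163 at -0.55. With array quality weights, estimated gene by gene because the default did not converge, injured replicate 1 had the least weight and 16102 genes passed, among them Csf1r at -1.42, Adgre1 at 0.60, Mrc1 at -2.00, Cd163 at -0.99, Lyve1 at -3.66 and F13a1 at -2.94. The cause of these shifts was not tested. Samples of equal replicate number deviated from their group means with correlations of 0.480, -0.043 and 0.589. For unequal numbers the correlations ran from -0.669 to 0.646, so these values cannot decide whether the numbers pair the arrays. With the replicate block, 0 genes passed the threshold and Mrc1 stayed at -1.59 (adjusted p = 0.240). The count at an unadjusted p under 0.05 was 4565 with the block and 2572 without. Signals close to the median unnamed probe set, as for Trem2 and Adgre1, limit what can be read from those genes.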
